A study of Homo sapiens with 18 samples.

Results

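Glutathione S-transferase (GST) genes were described in cisplatin-sensitive and cisplatin-resistant ovarian carcinoma cells. Members were the rows of the count table whose gene name was on a list of 10 GST genes, and 9 of the 10 were found among the 23622 genes of the table: GSTP1, GSTM2, GSTM4, GSTA4, GSTO1, GSTO2, GSTK1, GSTZ1 and MGST1. GSTM3 had no row and was not analysed here. All 9 passed the filter on low counts, which kept 15760 genes. GSTO2 passed it only through the libraries of cisplatin-treated A2780 cells, where it was highest, so in comparisons that use those libraries the members were counted without GSTO2 and its values are a description. The other 8 members passed the filter also without any 1 group.

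The 4 groups of RNA-seq libraries were A2780 control, A2780 cisplatin, Acis control and Acis cisplatin, with 3 libraries each. A2780 is a cisplatin-sensitive human ovarian carcinoma line, and Acis (A2780cis) is its resistant derivative, selected by chronic exposure to cisplatin and given 1 µM cisplatin every 3 passages in culture, so that all Acis groups share this exposure. Cisplatin groups were kept for 3 h in 200 µM cisplatin and control groups were untreated. Each resistance state was represented by 1 line, and Acis wells were seeded more densely than A2780 wells, which cannot be told apart from the line. The libraries of a group came from separate wells, and p-values do not cover any spread beyond these wells. Variance between wells was 0.738 to 1.54 times the counting noise. The tests also share spread across all genes, so p-values rest largely on counting noise. ATAC-seq, which maps accessible chromatin with a transposase, gave 1 peak list for each of the same 4 conditions.

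GSTs join the tripeptide glutathione to electrophilic compounds, which makes them more soluble and marks them for export by ABC transporters. The cytosolic enzymes fall into classes named by Greek letters (pi, mu, alpha, omega, zeta), the kappa enzyme works in mitochondria and peroxisomes, and the microsomal enzymes are membrane proteins of a separate origin. Many GST genes respond to the transcription factor NRF2, which binds antioxidant response elements, and glutathione itself can bind platinum compounds.

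Library totals ranged from 4130644 to 5072216 counts. RNA of A2780 and Acis cells differed in cell type markers: the summed normalized counts of 5 fibroblast markers were 1676 to 1825 in A2780 control and 18.1 to 29.8 in Acis control libraries, with COL1A2 at 0 in the latter. The 3 of 6 epithelial markers that had rows summed to 34.6 to 51.3 and 135 to 158 in the same groups, but not all were higher in the same line. Mean normalized counts of A2780 control and Acis control were 25.5 and 143 for KRT18, 15.6 and 4.05 for KRT8, and 3.55 and 0.734 for EPCAM, which was close to absence. No row was found for the 5 ovarian or Müllerian markers or the 4 endothelial ones, and of the 5 leukocyte markers CD68 alone had a row, at no more than 6.55 normalized counts in any library. The part of these marker differences in the results below was not tested.

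Stretches of DNA at the starts of 5 members are shown because peaks or response element cores lay in them. The 250 bases upstream of each start, taken from RefSeq on GRCh38.p14, were searched on both strands for TGACNNNGC (the antioxidant response element core), TGANTCA (the AP-1 site, which can overlap it) and GCGTG (the xenobiotic response element core). TGACNNNGC was found in GSTP1, GSTA4 and, at 2 places, GSTO1, and in 10.9% of all 35116 windows. The matches are printed with flanks to 30 bases, 5′ to 3′ on the strand of the gene (minus for GSTA4, plus for the others), with the match in capitals. They lay at chr11:67583736-67583765 (GSTP1), chr6:52995274-52995303 (GSTA4), chr10:104254656-104254685 (GSTO1, upstream match) and chr10:104254721-104254750 (GSTO1, downstream match) of GRCh38.
GSTP1: gccggcgccgTGACTCAGCactggggcgga
GSTA4: ccgggaccgcTGACCTGGCgctttgtgcgg
GSTO1 upstream: ggcggagggaTGACTGAGCatttataactt
GSTO1 downstream: cgagatgcttTGACACAGCcccttaagatg
The GSTP1 match ran from -66 to -58 relative to the transcript start and held the only TGANTCA match of the members, a motif found in 6.57% of windows. The GSTA4 match ran from -9 to -1, and the GSTO1 matches ran from -226 to -218 and from -161 to -153. All 4 stretches were covered by a peak in all 4 conditions. GCGTG was found in GSTM4 and at 2 places in GSTZ1, and in 32.2% of windows.

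For GSTM2 and GSTO2, the only members with a log2 fold change beyond 1 in any comparison, 200 bases just upstream of the first annotated exon are shown. In GSTM2 (chr1:109667822-109668021, plus strand, GRCh38) capitals mark the 158 bases that the peak at the start covered in all 4 lists. In GSTO2 (chr10:104268673-104268872, plus strand, GRCh38) capitals mark the 108 bases covered in A2780 control, A2780 cisplatin and Acis control. The Acis cisplatin peak began downstream of the GSTO2 stretch.
GSTM2: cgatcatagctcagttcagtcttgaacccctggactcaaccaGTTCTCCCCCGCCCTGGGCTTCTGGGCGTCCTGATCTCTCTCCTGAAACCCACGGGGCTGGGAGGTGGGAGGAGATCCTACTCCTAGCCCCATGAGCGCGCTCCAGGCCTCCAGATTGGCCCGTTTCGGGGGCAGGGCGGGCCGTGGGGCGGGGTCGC
GSTO2: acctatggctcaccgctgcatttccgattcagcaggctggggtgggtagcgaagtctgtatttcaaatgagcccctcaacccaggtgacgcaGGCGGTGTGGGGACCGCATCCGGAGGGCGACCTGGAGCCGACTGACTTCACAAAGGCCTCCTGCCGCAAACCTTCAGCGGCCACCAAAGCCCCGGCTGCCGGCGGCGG

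The first comparison asked how the untreated resistant line differs from the sensitive one. In Acis control cells 4 of 9 members were lower than in A2780 control cells at an adjusted p under 0.05 by edgeR's quasi-likelihood test (GSTM2, GSTA4, GSTK1 and GSTM4), beside 30.6% of all tested genes lower and 58.9% called in either direction. No member was higher, beside 28.2% of genes, by edgeR or by DESeq2, and none was higher at an unadjusted p under 0.05 by either tool. GSTM2 was the only member that also passed an absolute log2 fold change of 1, beside 12.2% of genes lower and 19.1% in either direction. The libraries of the 2 groups did not overlap for the same 4 members, all lower in Acis, as for 33.3% of all genes. The median log2 fold change was -0.19 over the members, -0.01 over all genes and 0.01 over 7566 length-matched genes, those whose canonical transcript spans 2842 to 35767 bp, the range of the members.

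Values per library are given as normalized counts, which are counts scaled to the mean library size, in the order of replicates 1, 2 and 3. GSTM2, a mu-class enzyme, had normalized counts of 29.8, 29.8 and 48.0 in A2780 control libraries and 11.7, 5.33 and 12.5 in Acis control libraries. All A2780 libraries lay above all Acis libraries, and the raw counts behind them were few, 108 against 27 over 3 libraries. The log2 fold change of GSTM2 in Acis against A2780 was -1.84 (SE 0.27, adjusted p = 1.43e-06, edgeR), or 0.279 times the A2780 level.

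GSTA4, the alpha-class enzyme that conjugates the lipid peroxidation product 4-hydroxynonenal, had normalized counts of 185, 179 and 206 in A2780 control and 117, 123 and 129 in Acis control. The ranges were well apart, and the log2 fold change was -0.63 (SE 0.08, adjusted p = 2.76e-07, edgeR). GSTK1, the kappa enzyme, had normalized counts of 323, 341 and 328 in A2780 control and 292, 261 and 260 in Acis control, where each library was below every A2780 library (log2 fold change -0.29, SE 0.07, adjusted p = 0.000829, edgeR). GSTM4, a second mu-class enzyme, is encoded just upstream of GSTM2 in the same orientation. Its normalized counts were 94.2, 92.3 and 97.1 in A2780 control and 71.2, 76.7 and 78.7 in Acis control (log2 fold change -0.32, SE 0.11, adjusted p = 0.0235, edgeR). The groups did not overlap for GSTM4, but the difference did not pass in DESeq2 (adjusted p = 0.143) or without Acis control replicate 1 (adjusted p = 0.0733, edgeR).

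The other 5 members did not pass the test between the untreated lines. GSTP1, the pi-class enzyme most often linked to drug resistance and also an inhibitor of JNK signaling, had normalized counts of 451, 470 and 477 in A2780 control and 492, 476 and 511 in Acis control. These ranges met at their edges, and the log2 fold change was 0.08 with a 95% interval of -0.02 to 0.18 (adjusted p = 0.206, edgeR). GSTO1, an omega-class enzyme that reduces dehydroascorbate and arsenic species, had a log2 fold change of 0.12 with an interval of -0.04 to 0.27. GSTZ1, the maleylacetoacetate isomerase of tyrosine breakdown, had one of -0.08 with an interval of -0.24 to 0.08. MGST1, the microsomal enzyme, had one of 0.00 with an interval of -0.24 to 0.24. GSTO2, the other omega enzyme, had raw counts of 11, 5 and 8 in A2780 control and 9, 6 and 4 in Acis control, and its interval of -1.0 to 0.62 around -0.19 was the widest of the 9. At these counts the GSTO2 difference was poorly determined, and the smallest detectable difference was not computed.

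**Figure D1:**
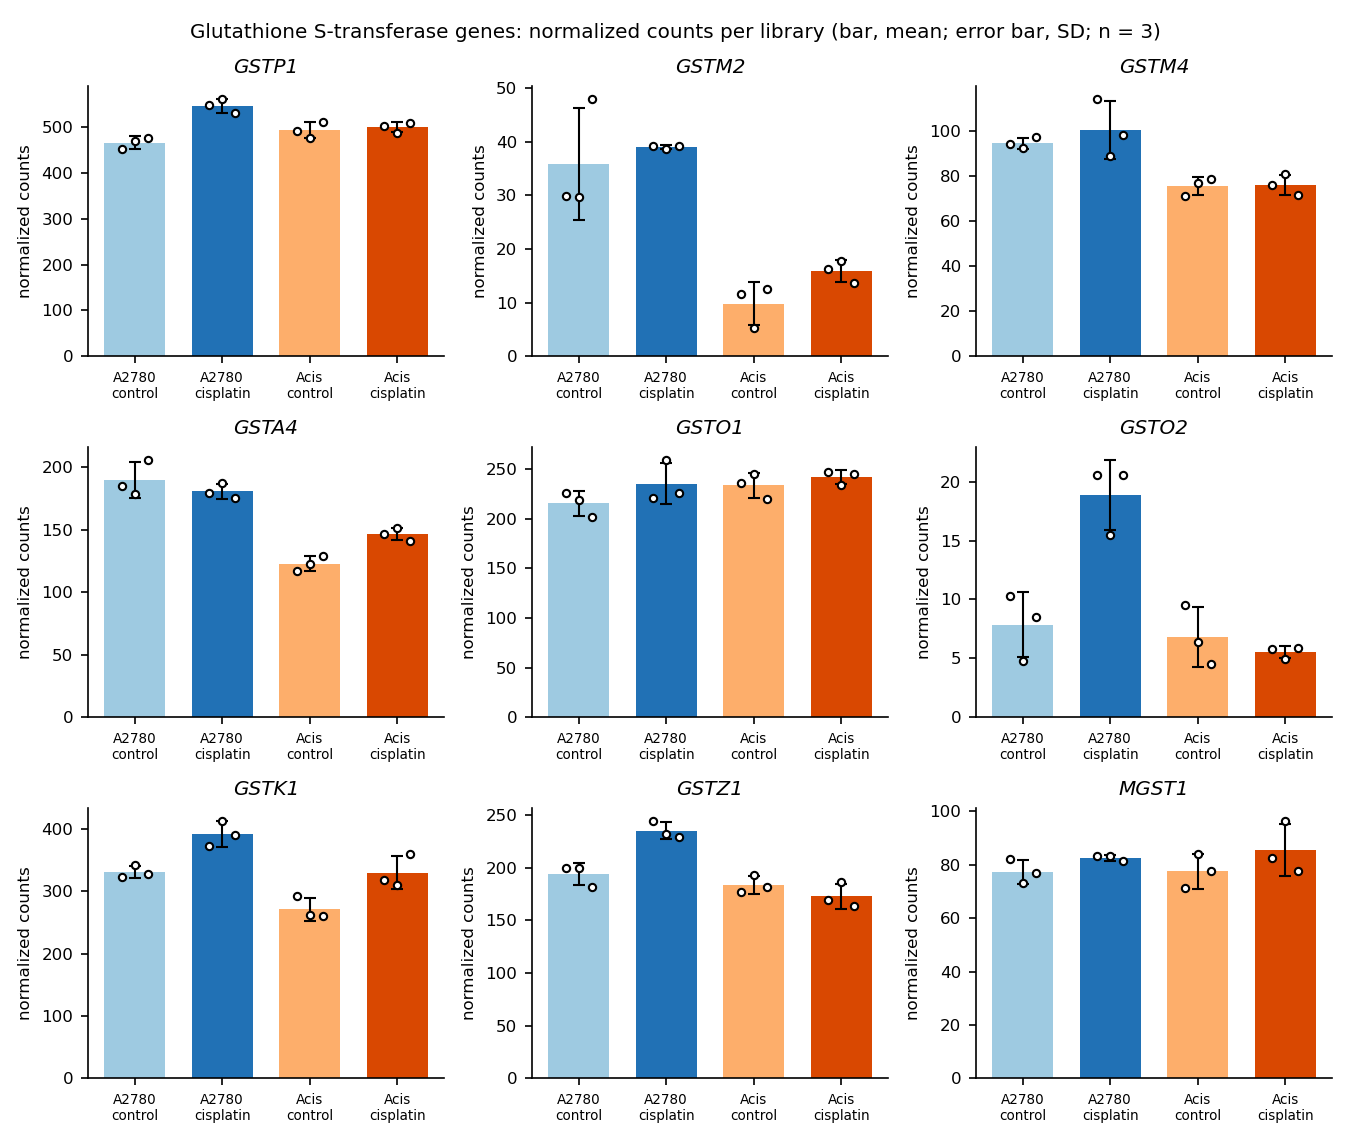
Normalized counts of the 9 members (y axis, from 0) in each of the 4 groups (x axis), with open circles for libraries, bars for the mean and error bars for the SD of 3 libraries. GSTM2 libraries lie between 29.8 and 48.0 in A2780 control and between 5.33 and 12.5 in Acis control, and GSTO2 is highest in A2780 cisplatin.

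The second comparison was the same contrast after 3 h of cisplatin. In Acis cisplatin cells 6 of the 8 members other than GSTO2 were lower than in A2780 cisplatin cells (edgeR), beside 31.2% of all tested genes lower and 63% called in either direction. No member was higher, against 31.8% of genes, by edgeR or DESeq2, nor at an unadjusted p under 0.05. GSTM2 passed an absolute log2 fold change of 1, beside 11.9% of genes lower and 19.2% in either direction. The groups did not overlap for the same 6 members, all lower in Acis, as for 33.1% of all genes, and the median log2 fold change was -0.28 over the 8 members, 0.00 over all genes and -0.04 over the length-matched genes.

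GSTO2 had normalized counts of 20.6, 15.5 and 20.6 in A2780 cisplatin and 5.76, 4.92 and 5.89 in Acis cisplatin. The raw counts were 59 and 17 in all, every A2780 library was above every Acis library, and the log2 fold change was -1.75 (SE 0.32). Without the filter on low counts, which keeps GSTO2 whatever its group, it was -1.74 (adjusted p = 2.28e-05, edgeR). GSTM2 had normalized counts of 39.3, 38.7 and 39.2 in A2780 cisplatin and 16.3, 17.7 and 13.8 in Acis cisplatin, with a log2 fold change of -1.29 (SE 0.23, adjusted p = 1.75e-05, edgeR). GSTM2 was thus lower in Acis with and without cisplatin, in separate libraries of the same lines, which do not replicate the line difference. GSTZ1 had normalized counts of 244, 232 and 229 in A2780 cisplatin and 169, 186 and 163 in Acis cisplatin (log2 fold change -0.45, SE 0.07, adjusted p = 4.90e-06, edgeR).

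GSTM4, GSTA4 and GSTK1 were lower in Acis by smaller amounts under cisplatin, with log2 fold changes of -0.40, -0.31 and -0.25. GSTM4 lost its call without A2780 cisplatin replicate 1 (adjusted p = 0.058, edgeR), the library where it was highest, at 114 normalized counts. GSTP1 had normalized counts of 548, 561 and 531 in A2780 cisplatin and 502, 487 and 509 in Acis cisplatin. The groups did not overlap, but the log2 fold change of -0.13 (SE 0.05, adjusted p = 0.0164, edgeR) was the smallest of the 6 and did not pass in DESeq2 (adjusted p = 0.0954), without A2780 cisplatin replicate 2 (adjusted p = 0.0782, edgeR) or without Acis cisplatin replicate 2 (adjusted p = 0.0871, edgeR). GSTO1 and MGST1 did not pass, with log2 fold changes of 0.04 (95% interval -0.11 to 0.18) and 0.05 (-0.18 to 0.27).

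**Figure D2:**
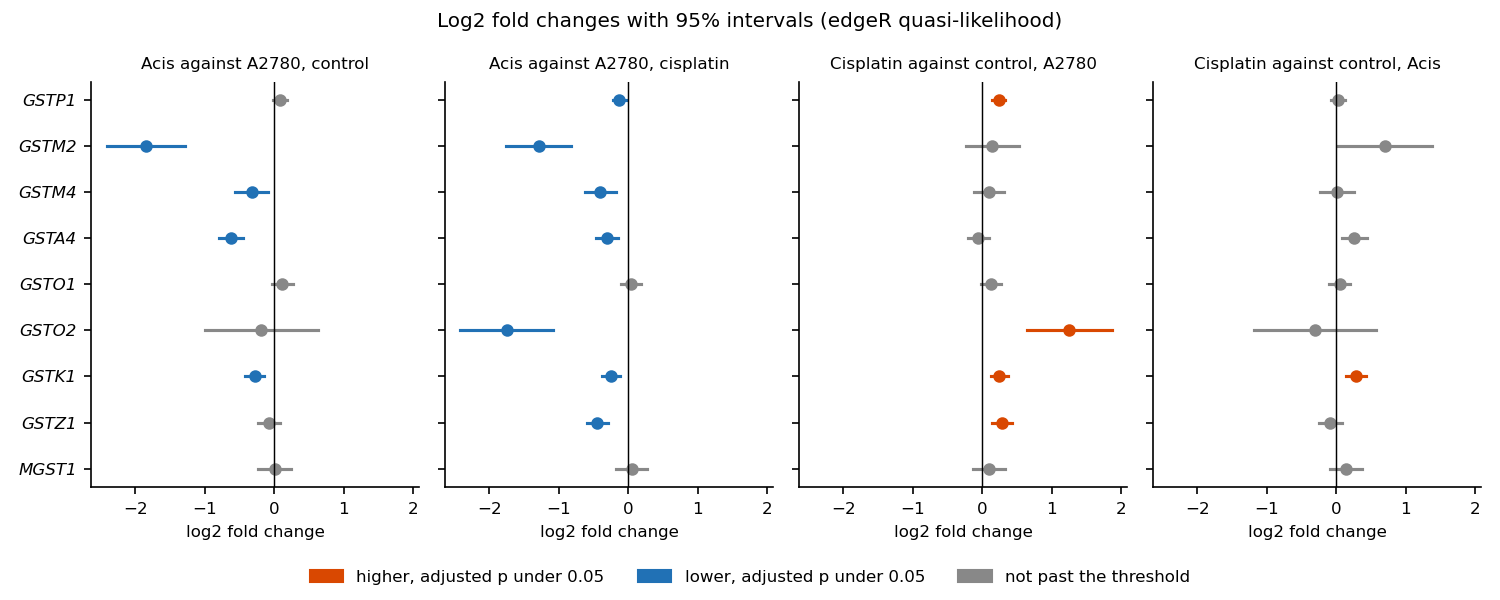
Log2 fold changes (x axis) of the 9 members (y axis) in the 4 comparisons, with points for the edgeR estimate and lines for its 95% interval. Blue marks members that were lower and orange members that were higher at an adjusted p under 0.05. Between the untreated lines 4 of the 9 members are lower, beside 30.6% of all tested genes. Under cisplatin 6 of the 8 members other than GSTO2 are lower, beside 31.2%, and GSTO2, also blue there, is a description. No member is higher in either line comparison, beside 28.2% and 31.8% of genes.

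The third comparison asked how cisplatin changed the members within each line. In A2780 cells 3 of the 8 members other than GSTO2 rose after cisplatin (GSTZ1, GSTK1 and GSTP1) and none fell, beside 21.2% of all tested genes higher and 49.5% called in either direction by edgeR. No member fell at an unadjusted p under 0.05 by edgeR or DESeq2, while 28.2% of genes fell at the adjusted threshold. None of the 8 passed an absolute log2 fold change of 1, beside 4.14% of genes higher and 5.62% in either direction. The groups did not overlap for the same 3 members, higher after cisplatin, as for 26% of all genes. The median log2 fold change was 0.13 over the 8 members, -0.01 over all genes and 0.11 over the length-matched genes. With total counts in place of TMM scaling, the median over all genes shifted to 0.10.

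The mean normalized count of GSTO2 was 7.87 ± 2.79 in A2780 control and 18.9 ± 2.96 in A2780 cisplatin (SD, n = 3), and the log2 fold change was 1.25 (SE 0.30). Without the filter on low counts, it was 1.22 (adjusted p = 0.00125, edgeR). Its raw counts per library were 22, 16 and 21 after cisplatin and no more than 11 in any other group. GSTZ1 had normalized counts of 200, 200 and 181 in A2780 control, below all the A2780 cisplatin libraries given above, with a log2 fold change of 0.28 (SE 0.07, adjusted p = 0.00171, edgeR). In DESeq2, GSTZ1 had an adjusted p of 0.0505.

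GSTK1 had normalized counts of 373, 413 and 389 in A2780 cisplatin, all above the control libraries (log2 fold change 0.25, SE 0.06, adjusted p = 0.00164, edgeR). The mean of GSTP1 went from 466 ± 13.3 in A2780 control to 546 ± 15.1 in A2780 cisplatin (normalized counts, SD, n = 3), up by 0.23 on the log2 scale (SE 0.05, adjusted p = 0.000178, edgeR), and its control and cisplatin libraries did not overlap. The other 5 members had log2 fold changes from -0.06 (GSTA4) to 0.14 (GSTM2), and their groups overlapped. GSTO1 was among them at 0.13 (95% interval -0.02 to 0.27), and it passed with total counts as library size (log2 fold change 0.24, adjusted p = 0.00666, edgeR).

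In Acis cells GSTK1 was the only member that rose after cisplatin, beside 9.35% of all tested genes higher and 21.8% called in either direction by edgeR. None fell at an adjusted or unadjusted p under 0.05 by edgeR or DESeq2, beside 12.4% of genes lower at the adjusted threshold, and none rose past a log2 fold change of 1, beside 1.64% of genes higher and 2.01% in either direction. GSTK1 had normalized counts of 319, 310 and 359 in Acis cisplatin, above the Acis control libraries (log2 fold change 0.28, SE 0.07, adjusted p = 0.00369, edgeR). In DESeq2 no member passed, and GSTK1 had an adjusted p of 0.0528 and was the 1 member with an unadjusted p under 0.05. GSTK1 was called in both lines by edgeR, and the test of a difference between its changes gave 0.03 on the log2 scale (95% interval -0.16 to 0.23).

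GSTA4 had normalized counts of 147, 152 and 141 in Acis cisplatin, above all Acis control libraries, with a log2 fold change of 0.26 (SE 0.09, adjusted p = 0.0548, edgeR). GSTM2 had one of 0.70 (SE 0.33, adjusted p = 0.144, edgeR), from 27 raw counts in Acis control to 49 in Acis cisplatin. With GSTK1 these were the 3 members whose groups did not overlap, all higher after cisplatin, as for 16.8% of all genes. The other 6 members had log2 fold changes from -0.31 (GSTO2) to 0.14 (MGST1), and the median was 0.05 over the members, 0.01 over all genes and 0.07 over the length-matched genes.

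Whether the change after cisplatin differed between the lines was tested by the interaction of line and treatment, which passed for GSTZ1 and GSTP1 of the 8 members other than GSTO2, beside 5.48% of all tested genes in the same direction and 18.9% in either. Both had the more positive change in A2780, and no member passed in the other direction, in which 13.4% of genes did. Neither passed a difference of 1 on the log2 scale, beside 0.698% of genes in that direction and 1.36% in either. GSTO2 had log2 changes of 1.25 in A2780 and -0.31 in Acis (difference -1.56, SE 0.53), and without the filter on low counts the difference of -1.55 did not pass (adjusted p = 0.0627, edgeR). Without that filter GSTP1 did not pass either (adjusted p = 0.0690, edgeR). GSTZ1 had 0.28 and -0.09 (difference -0.37, SE 0.11, adjusted p = 0.0179, edgeR), and GSTP1 had 0.23 and 0.02 (difference -0.21, SE 0.07, adjusted p = 0.0295, edgeR). These calls were fragile: DESeq2 called none of the 9 members, with GSTZ1, GSTP1 and GSTO2 at an unadjusted p under 0.05 and GSTO2 given no adjusted p, and leaving out any 1 library left 0 to 2 calls of the 3 that count GSTO2. The count was 0 without A2780 cisplatin replicate 1, and 1 without A2780 control replicate 2 or 3, Acis control replicate 1 or 2, or any Acis cisplatin replicate. GSTA4 had the opposite sign, -0.06 in A2780 and 0.26 in Acis, and did not pass (difference 0.32, SE 0.12, adjusted p = 0.0747, edgeR). In bulk RNA, fewer cells that express a gene and less RNA per cell cannot be told apart.

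Levels of different members were compared as normalized counts per kb of merged annotated exons. GSTP1 was the highest member in every group, at 264 ± 7.52 in control and 310 ± 8.53 in cisplatin-treated A2780 cells, and 279 ± 9.76 and 283 ± 6.23 likewise in Acis cells (SD, n = 3). GSTO1 followed at 127 ± 7.26 in A2780 control. GSTA4 and GSTK1 came next, with GSTA4 above GSTK1 in A2780 control (90.3 ± 6.80 against 78.4 ± 2.29) and below it in Acis control (58.4 ± 2.85 against 64.3 ± 4.33), and their libraries overlapped in A2780 cisplatin.

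GSTZ1, GSTM4, MGST1, GSTM2 and GSTO2 followed in this order in every group, from 23.1 ± 1.27 for GSTZ1 to 0.793 ± 0.281 for GSTO2 per kb in A2780 control. GSTM2 and GSTO2 overlapped in Acis control, at 1.08 ± 0.43 and 0.689 ± 0.255. GSTP1 made up 42.9% of the summed level of the 9 members in untreated and 44.8% in treated A2780 cells, and 47.5% in untreated and 45.5% in treated Acis cells. The sum itself was 616 ± 5.58 per kb in untreated and 692 ± 24.4 in treated A2780 cells, and 589 ± 3.09 in untreated and 623 ± 8.98 in treated Acis cells.

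The order below GSTP1 depended on the length used. Per kb of the Ensembl canonical transcript, GSTK1 came second in A2780 control (320 ± 9.35) and GSTO1 next (265 ± 15.1), GSTZ1 and GSTA4 overlapped, and GSTP1 made up 36.7% to 41.2% of the sum in the 4 groups. Because the authors removed duplicate single-end reads, counts of a short, abundant gene are bounded by its number of read starts. GSTP1 had 0.677 counts per base of its 741-base canonical transcript on average, the 99.7th percentile of 15708 tested genes, and at most 0.789 in 1 library. The effect of duplicate removal on the GSTP1 changes was not tested.

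**Figure D3:**
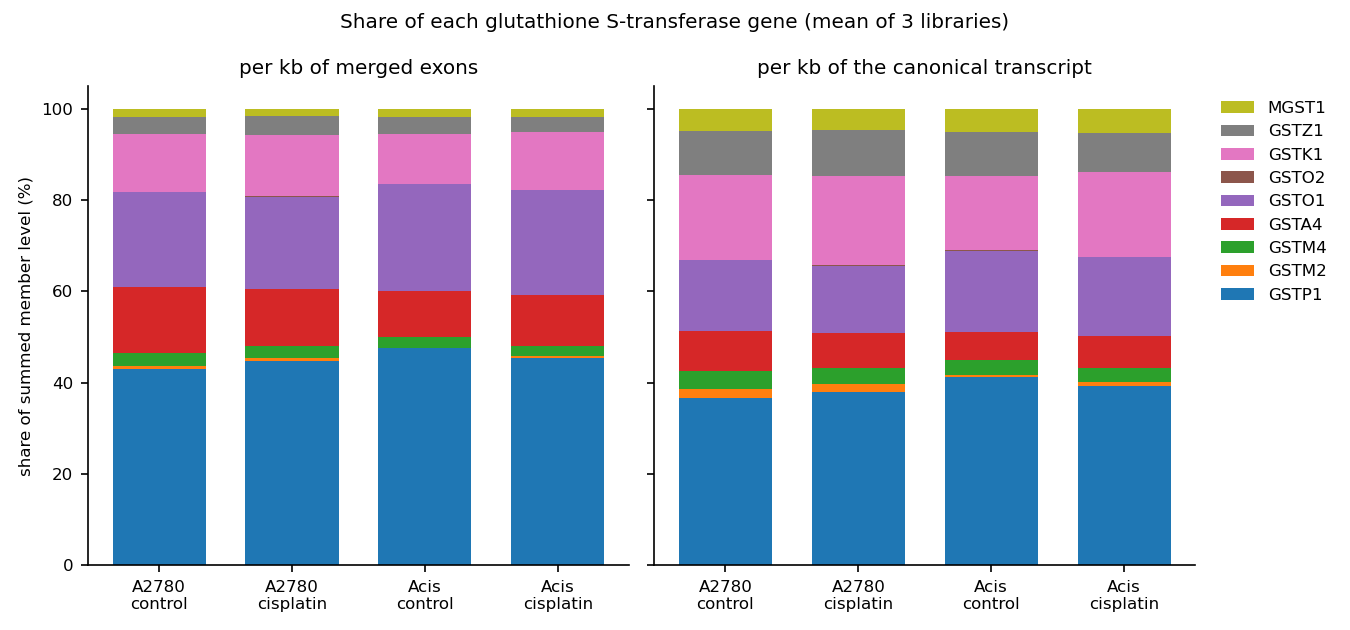
Share of the summed level (y axis, %) held by each of the 9 members in the 4 groups (x axis), as the mean of 3 libraries, per kb of merged exons (left) and of the canonical transcript (right). GSTP1 holds the largest share on both scales, 42.9% to 47.5% on the left and 36.7% to 41.2% on the right.

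GSTM2 and GSTM4 lie in the mu-class gene cluster of chromosome 1, whose members have near-identical stretches. In the canonical GSTM2 transcript, 40.8% of the 75-base windows also occurred in transcripts of GSTM1, GSTM4, GSTM5 or the pseudogene GSTM2P1. In that of GSTM4, 9.39% of windows were shared with other mu-class genes. Counts of both are therefore uncertain, by an amount that was not measured. GSTO1 shared 0.812% of its windows with the pseudogene GSTO3P, and the other 6 members shared none. GSTM1, which is not a member, lies within the annotated span of GSTM2 and overlaps 6.13% of its exonic bases on the same strand. It was higher in Acis control (93.8 normalized counts) than in A2780 control (70.1, log2 fold change 0.41, SE 0.13, adjusted p = 0.00661, edgeR), opposite in direction to GSTM2.

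ATAC-seq peaks were counted at a start when they overlapped the 1 kb on either side of the canonical transcript start. Of the 9 members, such a peak was listed for 9 and 8 in A2780 cells without and with cisplatin and for 8 and 9 in Acis cells without and with cisplatin, beside 56.5%, 58.1%, 50.4% and 53.8% of 19970 protein-coding genes. MGST1 was the exception, with a peak at its start in A2780 control (fold enrichment over local background 8.08) and Acis cisplatin (10.4) and none listed in the other conditions. Each condition had a single list, so peak heights could not be tested, and an unlisted peak was not shown to be absent. The shares were taken over all protein-coding genes, expressed or not. All 9 members had passed the filter on RNA counts, so the sets are unlike and an excess of peaks was not tested.

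GSTM2, whose RNA was lower in Acis, had a peak at its start in every list, with fold enrichments of 24.6 and 16.1 in A2780 control and cisplatin and of 26.5 and 23.3 in Acis control and cisplatin. The Acis control value was thus the highest of the 4. Acis control also had the highest median over 9571 gene starts with a peak in all 4 lists (17.5). The GSTM2 peak was narrowest in Acis cisplatin (283 bp). Peak widths, here and below, were not set beside those of other genes. GSTO2, whose RNA was highest in A2780 cisplatin, had fold enrichments of 26.8, 24.6, 29.2 and 31.2 in the same order, with the lowest value in A2780 cisplatin.

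GSTP1 had a start peak with fold enrichments of 12.7, 7.92, 14.6 and 13.1 in that order. In A2780 cisplatin this peak was 1625 bp wide and reached into the gene, where A2780 control and Acis cisplatin had a separate second peak (3.58 and 5.78) and Acis control had none. GSTO1 had 12.7, 6.87, 15.2 and 12.1 for the same lists, and its peak was 1342 and 1394 bp wide in the A2780 lists against 398 and 350 bp in the Acis lists. GSTA4 (13.2 to 17.3), GSTK1 (17.9 to 21.7), GSTZ1 (10.7 to 14.2) and GSTM4 (12.6 to 17.4) had a peak over the start in all 4 lists, and GSTZ1 had a second, upstream one in Acis cisplatin (6.14). In 7 of the 8 members with a peak in every list the lowest fold enrichment was that of A2780 cisplatin, with GSTK1 lowest in Acis cisplatin. This is near the background: A2780 cisplatin had the lowest value at 81.4% of 9571 gene starts with a peak in all 4 lists, where the median fold enrichment was 12.7 in A2780 cisplatin and 15.8 to 17.5 in the other lists.

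**Figure D4:**
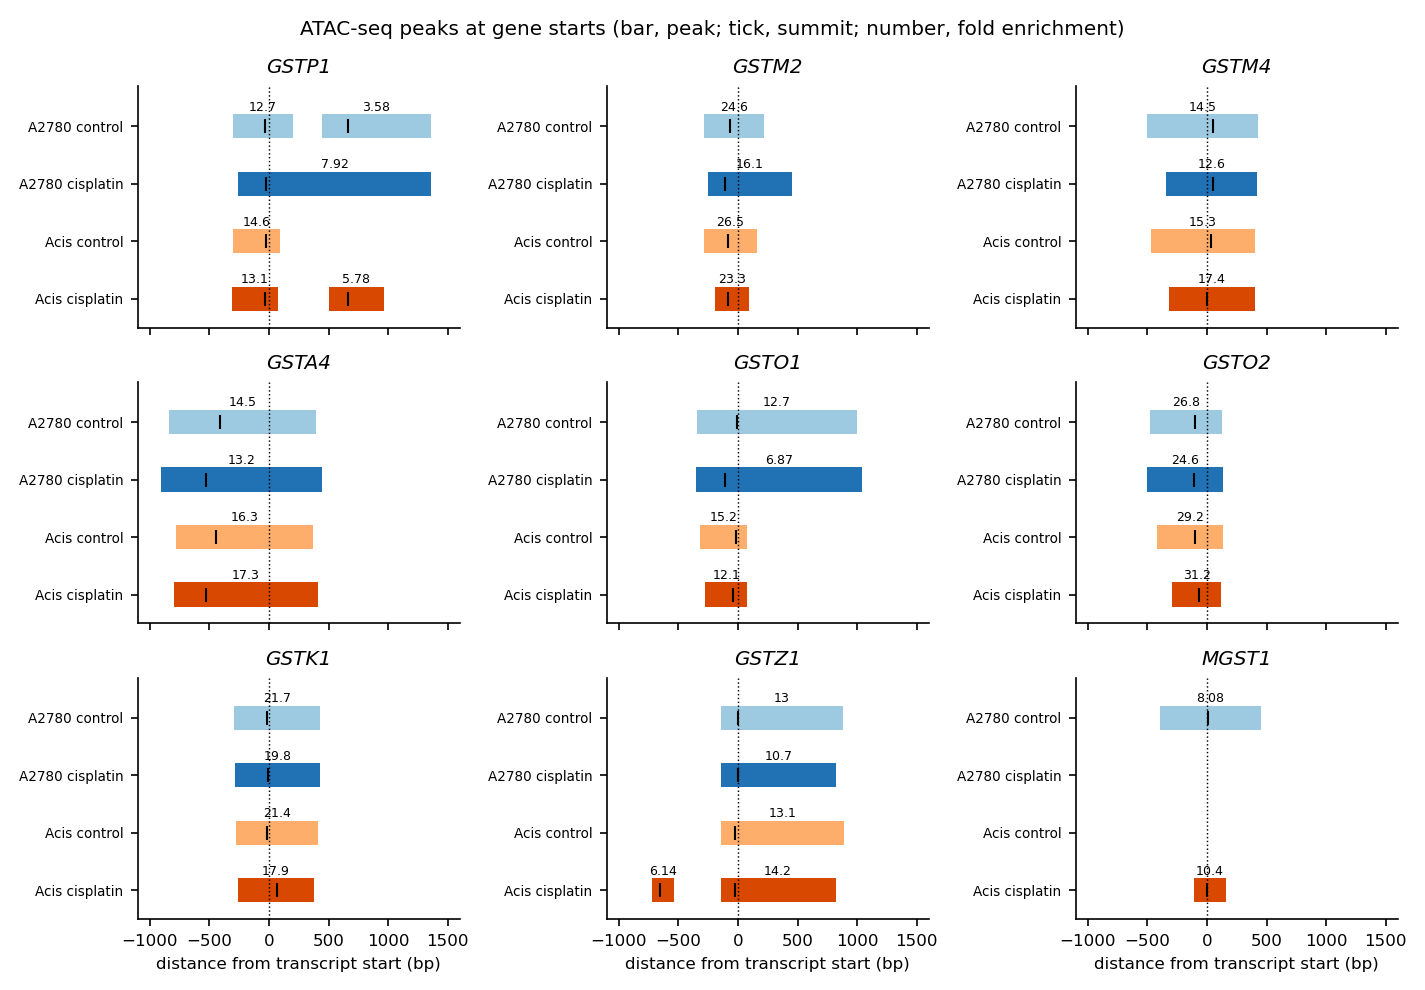
ATAC-seq peaks at the starts of the 9 members in the 4 conditions (y axis), drawn by distance from the canonical transcript start in bp (x axis, positive into the gene), with bars for peaks, ticks for summits and numbers for fold enrichment. GSTP1 has its widest peak, 1625 bp, in A2780 cisplatin, and MGST1 has a peak in 2 of the 4 conditions.

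Other genes of glutathione metabolism were counted from fixed lists in the contrast of Acis control against A2780 control, where 28.2% of all tested genes were higher and 30.6% lower. Of the 17 other glutathione transferase genes, 7 had rows and 5 were tested, of which 3 were higher and none lower in edgeR. They were PTGES, a prostaglandin E synthase related to MGST1 (log2 fold change 1.58), GSTCD (0.46) and GSTM1. Of 12 tested genes of glutathione synthesis and breakdown, 3 were higher and 4 lower. The cystine transporter SLC7A11 (-1.46) and its partner chain SLC3A2 (-0.46) were among the lower ones, as was CHAC1, which degrades glutathione (-1.71).

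Of 13 tested redox and other enzymes linked to glutathione, 3 were higher and 6 lower. PRDX6, which takes its electrons from glutathione with the help of GSTP1, was at 0.35. The peroxidase GPX8 was at -1.39 and ESD, which hydrolyzes S-formylglutathione, at -0.75. Of 7 tested conjugate exporters, 2 were higher, among them ABCC1 (0.30), and 2 lower, among them ABCC6 (-2.65). Of 8 tested regulators of GST genes, 1 was higher (MAFK, at 1.15) and 5 lower, with MAFG at -0.79 and BACH1, a repressor at antioxidant response elements, at -0.36.

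Of 5 tested signaling partners of GSTP1, 2 were higher, the kinase MAP3K5 (1.47) and its activator TRAF2 (0.44), and 1 was lower, MAPK10 (-2.36), which had a mean of 9.76 normalized counts in A2780 control. FAH, the enzyme that follows GSTZ1 in tyrosine breakdown, was the only tested gene of that list and did not pass (-0.04).

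The genes whose log2 levels, scaled to library size, over the 12 libraries were most like those of GSTM2, GSTA4 and GSTM4 are given as a description. The libraries share 2 lines and 2 treatments, and their part in the likeness was not tested. For GSTM2 they were TMEM223 (Pearson r = 0.972), ISCA2 (0.971) and ENSG00000276672 (0.967), and 334 of 10898 genes had an r over 0.9. For GSTA4 they were TMEM99 (0.975), TUG1 (0.971) and E2F7 (0.971), among 562 genes over 0.9. For GSTM4 they were RTBDN (0.957), SLC39A3 (0.946) and BRSK1 (0.936), among 78.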

How the data were processed

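RNA-seq and ATAC-seq files of A2780 and Acis cells were used, and the XR-seq samples were not analysed here. The authors made the raw counts from stranded, ribosomal RNA-depleted single-end 75 nt reads with STAR 2.7.3, removal of duplicates with Picard and HTSeq 0.11.1, and deposited them without normalization. Peaks were called by the authors with MACS2 on hg38 after Bowtie2 2.4.1 alignment and kept where all replicates overlapped, 3 behind each control list and 2 behind each cisplatin list. Each deposited peak carries a fold enrichment and a -log10 q value. The deposited display score was not used.

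The count analysis used edgeR 4.0.16 (R 4.3.3) with TMM scaling (factors 0.965 to 1.05), its filterByExpr filter (minimum count 10), 1 model for all 12 libraries in 4 groups (8 residual degrees of freedom), the quasi-likelihood test and Benjamini-Hochberg adjustment over 15760 genes. A member was called at an adjusted p under 0.05. DESeq2 1.42.0, the tool of the study, was an alternative, with other filters, scalings, lengths, left-out libraries and a replicate block. Totals of 4130644 to 5072216 counts leave wide errors for genes of few counts. Gene models were from GENCODE 44, which held 23513 of the IDs, and promoters from RefSeq. Scripts were tested on simulated data with larger changes than those of most members, in genes of higher counts than GSTO2. That test does not bear on calls of small changes or few counts. All members are named, and from each other list the 3 tested genes at most with the smallest adjusted p between the untreated lines. A gene of these lists is not reported here. Members and lists were chosen with earlier results of these data known.

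No pairing of the wells by replicate number was found, in a description without a test. Same-number correlations of the deviations from group means were -0.205 to 0.282, above 0.1 in 2 of 18 pairs. Of the 12 libraries, 6 correlated best with their own number. Variance between replicates was 0.738 to 1.54 times the counting noise, and all were kept as separate wells because the labels number them separately.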

Additional observations from a re-analysis of the deposited data

Results flagged for a closer look

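By the interaction test of edgeR, the change after cisplatin differed between the lines for GSTZ1 and GSTP1 of the 8 members other than GSTO2. Of all tested genes, 5.48% passed in the same direction and 18.9% in either. DESeq2 called neither GSTZ1 (adjusted p = 0.109) nor GSTP1 (adjusted p = 0.137). Without A2780 cisplatin replicate 1, edgeR called 0 members. The difference of log2 changes, Acis minus A2780, was -0.37 for GSTZ1 and -0.21 for GSTP1. GSTO2, not counted here, had a difference of -1.56. GSTO2 was in the test only through its counts in A2780 cisplatin, so its difference is a description, and without the filter on low counts its adjusted p was 0.0627 (edgeR). It rests on 59 raw counts in A2780 cisplatin and on 24, 19 and 17 in A2780 control, Acis control and Acis cisplatin. In the test without a filter on low counts, GSTZ1 alone passed. GSTP1 is the member closest to 1 count per transcript base, at 0.677, after the removal of duplicate reads, and the part of this in its difference was not tested.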

How the results depend on the processing

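No member changed direction past the threshold. Of the values of single members under alternatives, 804 kept their side of the threshold, 35 lost a call and 3 gained one. Counts here include GSTO2, which the filter kept only through A2780 cisplatin. With a log2 change of 1 or more in size also required, GSTM2 was called between the untreated lines, beside 19.1% of all tested genes. Between the lines under cisplatin GSTM2 and GSTO2 were called, beside 19.2%. GSTO2 alone was called after cisplatin in A2780 (beside 5.62%) and in the interaction (1.36%), and no member after cisplatin in Acis (2.01%). Counted without GSTO2, 1 member passed in each line comparison and 0 in the others. After cisplatin in Acis, 2 members (GSTA4 and GSTK1) were called with total counts as library size and with only the 2 groups in the fit, and 0 with DESeq2. In the interaction, 1 (GSTZ1) was called without the filter on low counts and with the closest replicate pairs merged, and 0 with DESeq2. Leaving out 1 library gave 3 to 4 calls between the untreated lines, 6 to 7 between the lines under cisplatin, 4 in A2780, 1 in Acis and 0 to 2 in the interaction, where no library could be left out without losing a call. The cause was not tested. With all libraries and without GSTO2, the counts were 4, 6, 3, 1 and 2 in the same order. Of all tested genes, 58.9%, 63%, 49.5%, 21.8% and 18.9% were called in either direction. Shares of all genes with a library left out are not given. With the replicate number as a block, the counts were 4, 7, 4, 1 and 3, as without it, and no pairing of the wells was found, with 6 of 12 libraries correlating best with their own number.

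The GSTP1 share was 36.7%, 37.9%, 41.2% and 39.3% per canonical transcript length and 31%, 32.1%, 35.6% and 34.0% per longest coding length in A2780 control, A2780 cisplatin, Acis control and Acis cisplatin, which follows from the lengths. These lengths, and the outermost annotated start, which gave 7, 6, 6 and 7 members with a peak, were chosen after seeing the data. The share of all genes with a peak at the outermost start was not computed. Whether the lower counts there are particular to the members was therefore not tested. The planned scaling by protein length was not run. Depth limits GSTO2 and GSTM2, at 17 to 59 and 27 to 122 raw counts per group.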
